A study of Mus musculus with 9 samples.

Results

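The Slc25 genes encode the mitochondrial carriers, the family of membrane proteins that moves metabolites across the inner mitochondrial membrane. Their mRNA levels were examined in mouse liver RNA-seq data. Members were the protein-coding genes of the deposited table whose symbol is Slc25a followed by a number, which gave 47 of the 54532 genes listed and of the 22046 protein-coding genes. A further symbol match, the pseudogene Slc25a5-ps, was left out. The data came from 9 livers of male C57BL/6 mice aged 5 to 7 weeks, 3 in each group, and the study's methods call the 3 of a group biological replicates. The NC group was labelled as control. The methods state that animals were fasted overnight before APAP. Mice of the APAP group received 500 mg/kg acetaminophen (APAP) intraperitoneally and had their livers taken at 6 h. Mice of the AMSC group were given the same dose of APAP and, directly after it, 200000 adipose-derived mesenchymal stem cells (AMSCs) through the tail vein, with livers also taken at 6 h. The AMSCs were grown from inguinal fat of C57BL/6 mice. The NC mice received no APAP, and whether the overnight fast or an injection also applied to them is not stated outright in the sources used here, so its part in comparisons with NC was not tested. Whole liver tissue was sequenced, so fewer cells of a type and less RNA per cell cannot be told apart either.

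A mitochondrial carrier is built from a repeated unit of paired membrane helices and works mostly as an exchanger, bringing one substrate in as another leaves. In hepatocytes these carriers link the cytosol to the urea cycle, gluconeogenesis, fatty acid oxidation, heme synthesis and ATP production inside mitochondria. Mitochondria are also a main site of APAP toxicity, because the reactive metabolite of APAP depletes glutathione and binds mitochondrial proteins. The members are described here by the substrate each is known to carry.

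The levels are the deposited FPKM, fragments per kilobase of gene length, and comparisons between genes depend on the length in the deposited table. Slc25a3, with a length of 5550 bases and 5683 mean reads, had a mean of 69.0 FPKM. Slc25a5, with 1646 bases and 6794 mean reads, had 276 FPKM. Whether these lengths match the transcripts made in liver was not tested, so ranks and shares of summed FPKM carry this limit. Between libraries their scaling follows a size factor, taken from the median ratio of reads per gene, and not the total reads. The scaling value was 1.08 to 1.16 times the reads on genes in NC. It was 0.909 to 0.949 times in APAP and 0.969 to 0.985 times in AMSC, and sums of FPKM carry this scaling too. The libraries held 13418921 to 16210930 reads on genes. On the deposited scale 1 read on a kilobase of gene length was worth 0.0578 FPKM (NC replicate 2) to 0.0807 FPKM (APAP replicate 2). Of the 47 members, 34 averaged 1 FPKM or more across all libraries and were tested, with mean reads per library from 62.1 to 23347. The other 13 were below this limit. Markers of hepatocytes were present in every library, with 7 of 7 found and a summed level of 41749 to 44466 FPKM in NC, 57454 to 67843 in APAP and 52064 to 54336 in AMSC. Most of this sum was Alb, with means of 28741, 44835 and 33180 FPKM in NC, APAP and AMSC. In APAP against NC 5 of the 7 had log2 fold changes above 0 and 2 (Fabp1 and Cps1, -0.11 and -0.14) below 0. NC replicate 3 carries another label date (4 April 2022) than the other 8 libraries (7 April 2022), and values without it are given where a call depends on it.

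In NC livers the carrier genes with the highest mean FPKM were Slc25a5, Slc25a39 and Slc25a47. Slc25a5, the widely expressed ADP/ATP exchanger, had 252.7, 271.8 and 282.5 FPKM in NC, 240.6, 268.3 and 276.2 in APAP, and 312.8, 296.2 and 285.3 in AMSC. Slc25a39, a glutathione carrier, had 162.4, 171.1 and 168.2 FPKM in NC, 159.6, 178.2 and 174.9 in APAP, and 183.5, 198.8 and 196.6 in AMSC. For both genes the AMSC livers lay above all other livers, but neither passed the test in any comparison. Slc25a1, the citrate exporter, had 102.5, 101.5 and 86.8 FPKM in NC, 76.1, 87.8 and 90.4 in APAP, and 82.0, 75.9 and 89.5 in AMSC. Slc25a10, the dicarboxylate carrier, had 82.8, 80.1 and 70.6 FPKM in NC, 57.6, 77.2 and 60.2 in APAP, and 71.5, 69.2 and 77.3 in AMSC. The ranges of Slc25a1 and of Slc25a10 overlapped between all groups. Slc25a47 ranked 3 among the members by its mean in NC and 1 in both APAP and AMSC, and Slc25a25 ranked 11 in NC, 4 in APAP and 8 in AMSC.

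**Figure D1:**
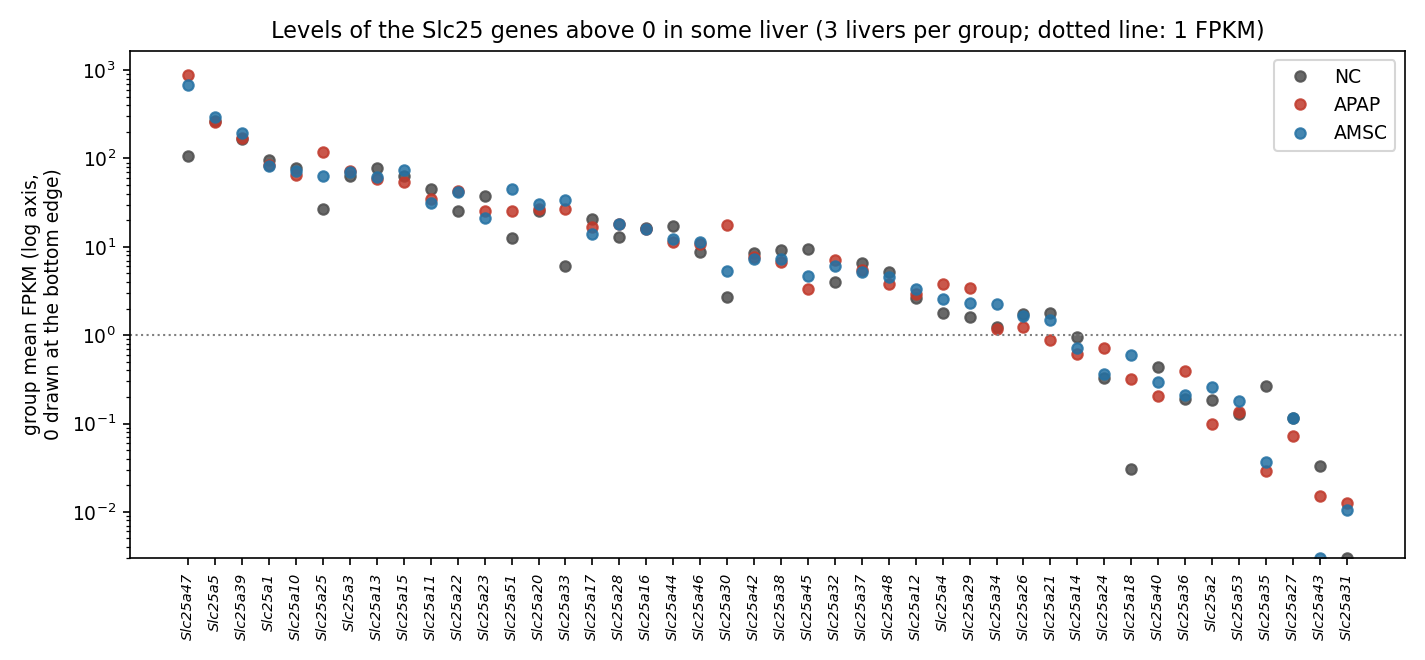
Mean FPKM of Slc25 genes above 0 in some liver (log axis, 3 livers per group), with genes ordered by their mean over the 9 libraries and the dotted line at 1 FPKM. The APAP and AMSC points of Slc25a47 stand apart from its NC point, while for Slc25a5, Slc25a39, Slc25a1 and Slc25a10 the points of the 3 groups lie close together.

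Slc25a47 also set most of the difference in the summed level of the family. The 47 members together held 1210 to 1282 FPKM in NC, 1861 to 2311 in APAP and 1571 to 2306 in AMSC. Slc25a47 made up 6.54%, 7.70% and 11.3% of this sum in the NC livers, 39.6%, 43.7% and 42.6% in the APAP livers, and 35.4%, 19.0% and 45.8% in the AMSC livers. Without Slc25a47 the sum was 1134 ± 15.5 FPKM in NC, 1213 ± 88.9 in APAP and 1250 ± 22.3 in AMSC (mean ± SD, n = 3). The ranges of the NC livers (1117 to 1147 FPKM) and the APAP livers (1124 to 1301 FPKM) then overlapped, and the AMSC livers lay between 1228 and 1273 FPKM.

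**Figure D2:**
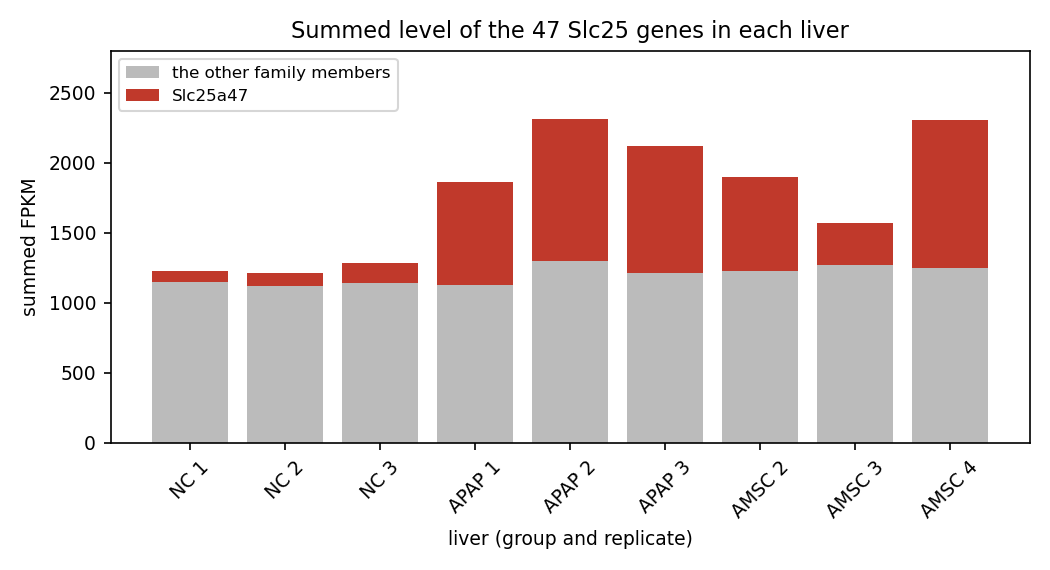
Summed FPKM of the 47 Slc25 genes in each liver, split into Slc25a47 and the other members. The part of Slc25a47 is largest in the APAP livers and in AMSC replicate 4 (45.8%), and the part of the other members varies from 1117 to 1301 FPKM.

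The comparison of APAP with NC asks which carriers differed 6 h after the overdose. Slc25a47, Slc25a25, Slc25a30 and Slc25a33 rose by 1.93 to 3.08 on the log2(FPKM + 1) scale, and Slc25a45 fell. In all, 8 of the 34 tested members (23.5%) rose and 4 (11.8%) fell at an adjusted p of at most 0.05 (limma), where 12.8% of all 9699 genes tested rose and 13.1% fell. By the thresholds of the study (the adjusted p as above, together with a rise or fall of 1 or more on the log2 scale), 5 members (14.7%) were DEGs, compared with 7.90% of all genes. The median log2 fold change was -0.05 over the 34 members and -0.004 over all genes tested. With no filter on low genes, the rises of Slc25a4 and Slc25a29 (adjusted p = 0.0526 and 0.124) and the falls of Slc25a21 and Slc25a44 (0.0686 and 0.0641) were lost.

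Slc25a47 (ENSMUSG00000048856, chromosome 12, 108836046 to 108856815 on the plus strand, GRCm38) encodes a carrier found mainly in liver whose substrate is not settled. Its level was 80.2, 93.2 and 144.3 FPKM in the NC livers, 737.2, 1010 and 901.9 FPKM in the APAP livers, and 672.1, 298.1 and 1057 FPKM in the AMSC livers. All APAP and AMSC livers were above all NC livers, and the AMSC livers spread across a wider range than the APAP livers. The group means were 105.9 ± 33.9, 882.9 ± 137.2 and 675.7 ± 379.5 FPKM (SD, n = 3). Against NC the APAP group rose 8.46-fold on the log2(FPKM + 1) scale (log2 3.08, SE 0.23, adjusted p = 0.000185 with limma). Slc25a29, a carrier of basic amino acids, is the neighbour of Slc25a47 on the minus strand, with 162 bases between the 2 genes as the deposited table gives their spans. The single RefSeq start of Slc25a47 lies further from Slc25a29, just after base 108851128 and inside the deposited span of Slc25a47. Slc25a29 had 1.43, 2.17 and 1.16 FPKM in NC, 2.43, 4.30 and 3.51 in APAP, and 1.88, 2.30 and 2.73 in AMSC. It rose in APAP against NC by 0.77 (SE 0.21, adjusted p = 0.0299), a call that was lost without NC replicate 1 (0.0944), NC replicate 3 (0.0848), APAP replicate 2 (0.0921) or APAP replicate 3 (0.0771). In plain FPKM the APAP mean of Slc25a29 was 2.15 times its NC mean.

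Among the carriers of ATP, Slc25a25 (ENSMUSG00000026819, chromosome 2, 32414487 to 32451445 on the minus strand) encodes a calcium-regulated exchanger of ATP-Mg for phosphate, which sets the adenine nucleotide content of mitochondria. It had 36.1, 19.8 and 25.6 FPKM in NC, 96.9, 144.9 and 117.9 in APAP, and 54.8, 67.6 and 66.5 in AMSC. The 3 groups did not overlap, with the AMSC livers between the others. It rose in APAP against NC by 2.13 (SE 0.24, adjusted p = 0.00102 with limma). Part of its exon sequence, 379 bases, overlaps Naif1 on the other strand, and strandedness of the libraries is not given in the sources used here. Slc25a23, an exchanger of the same kind, had 47.9, 41.3 and 22.4 FPKM in NC, 33.0, 24.9 and 18.8 in APAP, and 18.6, 23.4 and 22.2 in AMSC. In APAP against NC its log2 fold change was -0.49 (adjusted p = 0.271), and with the replicate number as a block it fell (adjusted p = 0.0367). Slc25a4, the ADP/ATP exchanger of heart and muscle, had 1.45, 1.77 and 2.07 FPKM in NC, 3.04, 3.70 and 4.62 in APAP, and 2.94, 2.06 and 2.60 in AMSC. It rose in APAP by 0.78 (SE 0.16, adjusted p = 0.0104), at a level far below that of Slc25a5, whose log2 fold change was -0.04 (95% interval -0.33 to 0.24). In plain FPKM the APAP mean of Slc25a4 was 2.15 times its NC mean. The phosphate carrier Slc25a3 had a log2 fold change of 0.18 (95% interval -0.18 to 0.54).

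Slc25a30 (ENSMUSG00000022003, chromosome 14, 75760117 to 75787037 on the minus strand), once called KMCP1, encodes an exchanger of small anions related to the uncoupling proteins. It had 2.91, 2.10 and 3.17 FPKM in NC, 14.1, 25.4 and 13.1 in APAP, and 5.51, 3.99 and 6.64 in AMSC. Every APAP liver was above every AMSC liver, and every AMSC liver was above every NC liver. It rose in APAP against NC by 2.27 (SE 0.25, adjusted p = 0.000954 with limma). Of the other tested carriers placed with di- and tricarboxylates, Slc25a21, which carries oxodicarboxylates such as oxoadipate in lysine breakdown, fell by 0.57 on the log2 scale (SE 0.14, adjusted p = 0.0230). It had 2.08, 1.46 and 1.84 FPKM in NC, 0.857, 0.696 and 1.07 in APAP, and 1.68, 1.06 and 1.69 in AMSC. On scales that shrink low genes less, the fall was 0.96 (pseudocount of 0.1) and 1.03 (voom). Its call was lost without NC replicate 1 (0.0939), NC replicate 3 (0.0580) or APAP replicate 2 (0.0672). Slc25a1, Slc25a10, the oxoglutarate/malate exchanger Slc25a11 and Slc25a34 did not pass, with log2 fold changes of -0.35 to -0.03.

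Among the carriers of other nucleotides and cofactors, Slc25a33 (ENSMUSG00000028982, chromosome 4, 149744036 to 149774277 on the minus strand) encodes a carrier of pyrimidine nucleotides, the building blocks of mitochondrial DNA and RNA. It had 5.91, 7.42 and 5.11 FPKM in NC, 19.1, 33.4 and 27.2 in APAP, and 38.2, 30.9 and 32.3 in AMSC. All treated livers were above all NC livers, while the APAP and AMSC ranges overlapped. It rose in APAP against NC by 1.93 (SE 0.22, adjusted p = 0.00102 with limma). The folate and FAD carrier Slc25a32 had 4.72, 3.61 and 3.62 FPKM in NC, 7.12, 7.24 and 6.99 in APAP, and 6.09, 5.72 and 6.37 in AMSC. It rose by 0.71 (SE 0.12, adjusted p = 0.00631). Slc25a51 (ENSMUSG00000045973, chromosome 4, 45395923 to 45408766 on the minus strand), which brings NAD into mitochondria, had 15.8, 10.0 and 12.3 FPKM in NC, 16.4, 36.0 and 23.6 in APAP, and 47.9, 49.2 and 39.9 in AMSC. The groups did not overlap, although the highest NC liver and the lowest APAP liver lay close together, and the log2 fold change of 0.89 in APAP missed the threshold (SE 0.28, adjusted p = 0.0516), passing it without APAP replicate 1 (0.0130), with all libraries in the same fit (0.0249) and with voom (0.0383). The coenzyme A carriers Slc25a42 and Slc25a16, the S-adenosylmethionine carrier Slc25a26 and the peroxisomal carrier Slc25a17 had log2 fold changes of -0.29 to -0.05, with no call. Slc25a42 passed when APAP replicate 1 was left out (adjusted p = 0.0239).

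**Figure D3:**
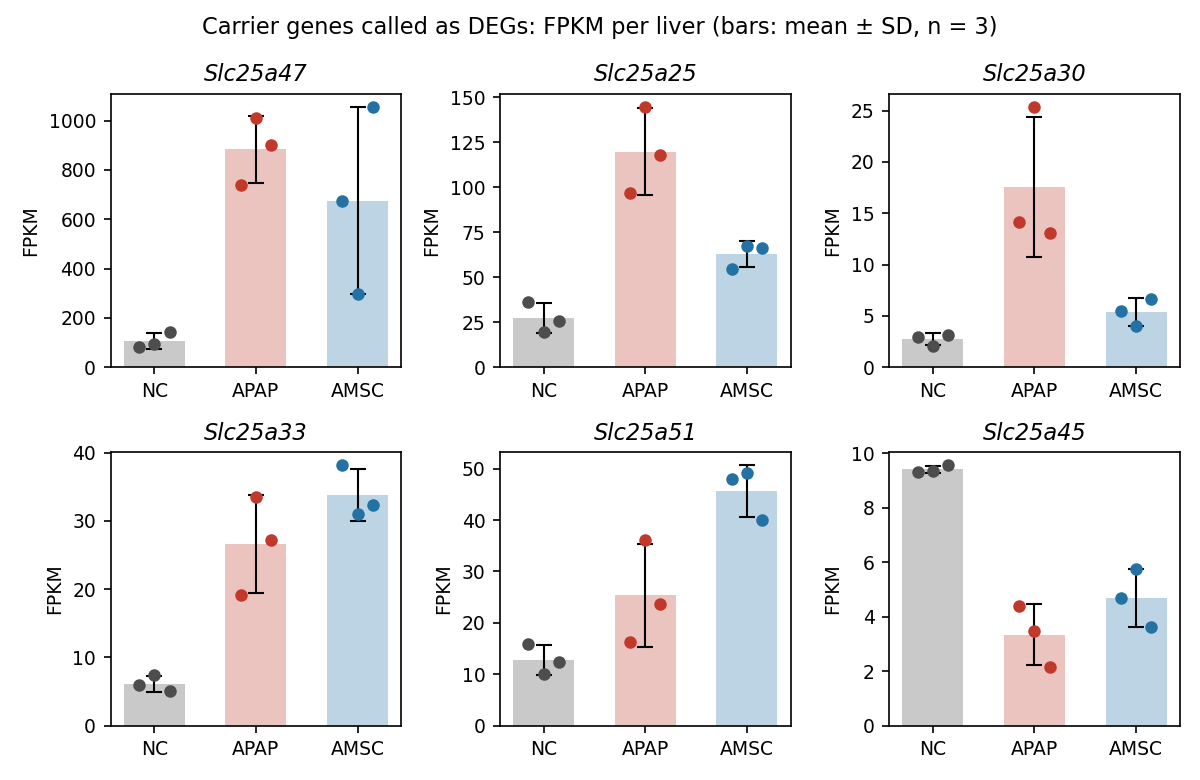
FPKM of the 6 Slc25 genes that were DEGs in any comparison (points: livers, bars: mean ± SD, n = 3 per group). Slc25a25 and Slc25a30 are highest in APAP, Slc25a51 is highest in AMSC, and Slc25a45 is lowest in APAP.

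The 4 carriers that rose most in APAP against NC were picked by that rise, and shared regulation of them was not tested. In AMSC against APAP their log2 fold changes were -1.50 (Slc25a30), -0.91 (Slc25a25), -0.55 (Slc25a47) and 0.36 (Slc25a33). Their upstream sequences are shown here. Each is the 250 bases before a RefSeq transcript start (GRCm38.p6), written 5′ to 3′ on the strand of the gene, with capitals marking matches to the motifs searched. The window of Slc25a47 is chr12:108850879-108851128 on the plus strand and lies inside the span that the deposited table gives for the gene. RefSeq lists 3 starts for Slc25a25, and the window shown, which alone held a motif match, is chr2:32424067-32424316 on the minus strand. The bases just after this window were not found in a GENCODE transcript of the gene. The windows of the other 2 starts held none of the motifs searched and are not shown. For chr2:32431152-32431401 among them, the bases just after the window were found in a GENCODE transcript of the gene. The window of Slc25a30 is chr14:75787038-75787287 and that of Slc25a33 is chr4:149774268-149774517, both on the minus strand.
Slc25a47: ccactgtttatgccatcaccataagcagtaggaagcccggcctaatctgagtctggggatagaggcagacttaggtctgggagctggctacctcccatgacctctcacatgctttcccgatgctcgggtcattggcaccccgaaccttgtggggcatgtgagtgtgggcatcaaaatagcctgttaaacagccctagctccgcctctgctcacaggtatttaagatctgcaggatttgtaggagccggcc
Slc25a25: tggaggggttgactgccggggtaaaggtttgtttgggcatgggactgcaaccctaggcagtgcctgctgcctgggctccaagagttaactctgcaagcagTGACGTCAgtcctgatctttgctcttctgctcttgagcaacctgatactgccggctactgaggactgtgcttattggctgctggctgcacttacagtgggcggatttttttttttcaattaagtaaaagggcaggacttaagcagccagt
Slc25a30: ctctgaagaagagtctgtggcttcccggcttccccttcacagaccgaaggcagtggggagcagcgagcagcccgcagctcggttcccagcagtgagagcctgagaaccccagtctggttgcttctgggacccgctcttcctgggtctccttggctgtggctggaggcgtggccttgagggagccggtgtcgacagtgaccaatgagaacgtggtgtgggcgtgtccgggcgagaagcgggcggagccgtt
Slc25a33: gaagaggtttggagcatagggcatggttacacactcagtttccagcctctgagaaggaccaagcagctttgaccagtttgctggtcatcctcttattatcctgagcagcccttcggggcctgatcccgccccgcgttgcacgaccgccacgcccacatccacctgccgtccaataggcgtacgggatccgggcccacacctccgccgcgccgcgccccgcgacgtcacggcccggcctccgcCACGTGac
The Slc25a25 window holds TGACGTCA, the cAMP response element, at 150 to 143 bases before the start, and the Slc25a33 window holds CACGTG, the E-box, at 8 to 3 bases before the start. Also searched on both strands were the AP-1 site (TGANTCA), the C/EBP-ATF site (TGATGNAA) and the TATA box (TATAAA). Of the 34 tested members 27 had a RefSeq window. TGACGTCA was found in 1 of the 27 (Slc25a25) and in 3.07% of the 7038 tested genes with a window, and CACGTG was found in 4 (Slc25a1, Slc25a13, Slc25a15 and Slc25a33) and in 10.6% of these genes. TGANTCA was found in 2 members (Slc25a11 and Slc25a13) and in 5.5% of the genes, TATAAA in 1 member (Slc25a21) and 8.16%, and TGATGNAA in 0 members and 2.29%. These are matches of letters and not shown binding sites.

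The carriers of amino acids moved in both directions in APAP against NC. Slc25a22, a glutamate carrier, had 27.3, 22.3 and 27.4 FPKM in NC, 40.9, 46.4 and 40.7 in APAP, and 33.2, 48.4 and 44.7 in AMSC, and it rose in APAP by 0.72 (SE 0.13, adjusted p = 0.00762 with limma). Slc25a44, which carries branched-chain amino acids, had 19.1, 17.7 and 14.5 FPKM in NC, 12.1, 11.8 and 10.4 in APAP, and 10.3, 12.7 and 13.8 in AMSC. It fell in APAP by 0.54 (SE 0.14, adjusted p = 0.0248). Slc25a38, which brings in glycine for heme synthesis, had 9.75, 9.16 and 8.88 FPKM in NC, 6.59, 6.67 and 7.15 in APAP, and 7.20, 7.06 and 7.56 in AMSC. It fell in APAP by 0.40 (SE 0.11, adjusted p = 0.0303). The call on Slc25a44 was lost without NC replicate 1 (0.107), NC replicate 2 (0.0972), APAP replicate 2 (0.0617) or APAP replicate 3 (0.0653), and that on Slc25a38 without NC replicate 1 (0.135), NC replicate 2 (0.106), NC replicate 3 (0.0508) or APAP replicate 2 (0.0869). The ornithine carrier of the urea cycle, Slc25a15, had 46.8 to 71.5 FPKM in the NC and APAP livers and did not pass (log2 -0.22, 95% interval -0.57 to 0.13). The aspartate/glutamate exchanger of liver, Slc25a13 (citrin), had 78.1, 70.6 and 86.1 FPKM in NC and 65.9, 58.2 and 53.8 in APAP, with a log2 fold change of -0.40 that missed the threshold (adjusted p = 0.0683) and passed it without APAP replicate 1 (0.0380), with quantile normalization (0.0351) and with all libraries in the same fit (0.0356). Its relative Slc25a12 (aralar) had 2.48 to 3.16 FPKM in these livers and a log2 fold change of 0.12 (95% interval -0.15 to 0.39).

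Of the 3 carriers of iron and glutathione that were tested, none passed in APAP against NC with limma, 1 had an unadjusted p under 0.05 (Slc25a28), and voom called 0. Slc25a28, the mitoferrin found widely in tissues, had 12.7, 12.0 and 14.3 FPKM in NC, 15.2, 18.1 and 21.0 in APAP, and 20.5, 14.9 and 18.4 in AMSC. Its log2 fold change of 0.44 missed the threshold (adjusted p = 0.0622), and it rose with the replicate number as a block (0.0345) and without APAP replicate 1 (0.0233). Slc25a37, the mitoferrin of red cell precursors, had 5.65 to 7.29 FPKM in NC, 4.88 to 5.96 in APAP and 4.48 to 6.31 in AMSC. The summed level of erythroid markers (5 of 5 found) was 134.5 to 254.0 FPKM in NC, 305.9 to 1406 in APAP and 183.2 to 311.9 in AMSC, and its part in the values of Slc25a37, Slc25a38 and Slc25a28 was not tested. The carnitine/acylcarnitine exchanger Slc25a20, which serves fatty acid oxidation, had a log2 fold change of 0.05 (95% interval -0.30 to 0.39). Slc25a46, an outer membrane protein of mitochondrial dynamics, had 0.28 (95% interval -0.03 to 0.59).

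Slc25a45 (ENSMUSG00000024818, chromosome 19, 5877808 to 5885766 on the plus strand) encodes a carrier whose substrate is less well established. It had 9.32, 9.34 and 9.56 FPKM in NC, 4.39, 3.47 and 2.16 in APAP, and 4.68, 5.75 and 3.62 in AMSC. All treated livers were below the NC livers, which lay close together. It fell in APAP against NC by 1.30 on the log2 scale (SE 0.19, adjusted p = 0.00321 with limma). Slc25a48, of the same group, had 5.49, 5.88 and 4.34 FPKM in NC and 3.58, 3.85 and 3.82 in APAP (log2 -0.39, adjusted p = 0.0636), and it passed without NC replicate 3 (0.0311) and with all libraries in the same fit (0.0401).

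The comparison of AMSC with APAP asks which carriers differed when AMSCs were given after the overdose. Slc25a30 and Slc25a25, both of which rose in APAP against NC, fell in AMSC against APAP. With limma, 2 of the 34 tested members (5.88%) fell, where 2.14% of all genes tested fell, and 0 rose, where 1.64% of all genes rose. An unadjusted p under 0.05 was found for 3 members in the upward and 3 in the downward direction, and the share of all genes at that threshold was not counted. Voom called 0 members higher and 2 lower, where it called 206 of all 9699 genes higher and 258 lower. A single member (2.94%) was a DEG, compared with 1.96% of all genes. The median log2 fold change was 0.03 over the members and 0.01 over all genes tested. The APAP libraries enter this comparison and the one with NC, so the values of a member in the 2 comparisons are not independent.

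Slc25a30 went from 14.1, 25.4 and 13.1 FPKM in APAP to 5.51, 3.99 and 6.64 in AMSC, which met the DEG thresholds (log2 -1.50, SE 0.26, adjusted p = 0.0292). Slc25a25 went from 96.9, 144.9 and 117.9 FPKM to 54.8, 67.6 and 66.5 (log2 -0.91, SE 0.18, adjusted p = 0.0373 with limma). For both genes every AMSC liver was below every APAP liver. The call on Slc25a30 was lost without APAP replicate 3 (0.0540) or without AMSC replicate 2, 3 or 4 (0.0825, 0.105 and 0.0694). The call on Slc25a25 was lost without APAP replicate 2 or 3 (0.0720 and 0.0993) or without AMSC replicate 2, 3 or 4 (0.112, 0.108 and 0.113). Both were also lost when all genes above 0 were tested (0.159 and 0.149).

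Slc25a47 did not pass in AMSC against APAP, with a log2 fold change of -0.55 and a 95% interval of -1.51 to 0.40. AMSC replicate 3, at 298.1 FPKM, and AMSC replicate 2, at 672.1, were below all APAP livers, and AMSC replicate 4, at 1057, was above them. Slc25a51 was higher in every AMSC liver than in every APAP liver, with a log2 difference of 0.89 (95% interval 0.29 to 1.49) that missed the threshold (adjusted p = 0.111, limma) and passed it without APAP replicate 2 (0.0307). Slc25a4 and Slc25a29 had log2 fold changes of -0.43 and -0.40, and Slc25a21 and Slc25a15 of 0.40 and 0.41, none of which passed. Slc25a34, placed with the carriers of di- and tricarboxylates, had 0.613 to 1.75 FPKM in APAP and 1.79 to 2.59 in AMSC (log2 0.60, adjusted p = 0.160). Slc25a45 and Slc25a33 had log2 fold changes of 0.41 (95% interval -0.11 to 0.92) and 0.36 (-0.11 to 0.84). The remaining members described here lay between -0.25 and 0.24.

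**Figure D4:**
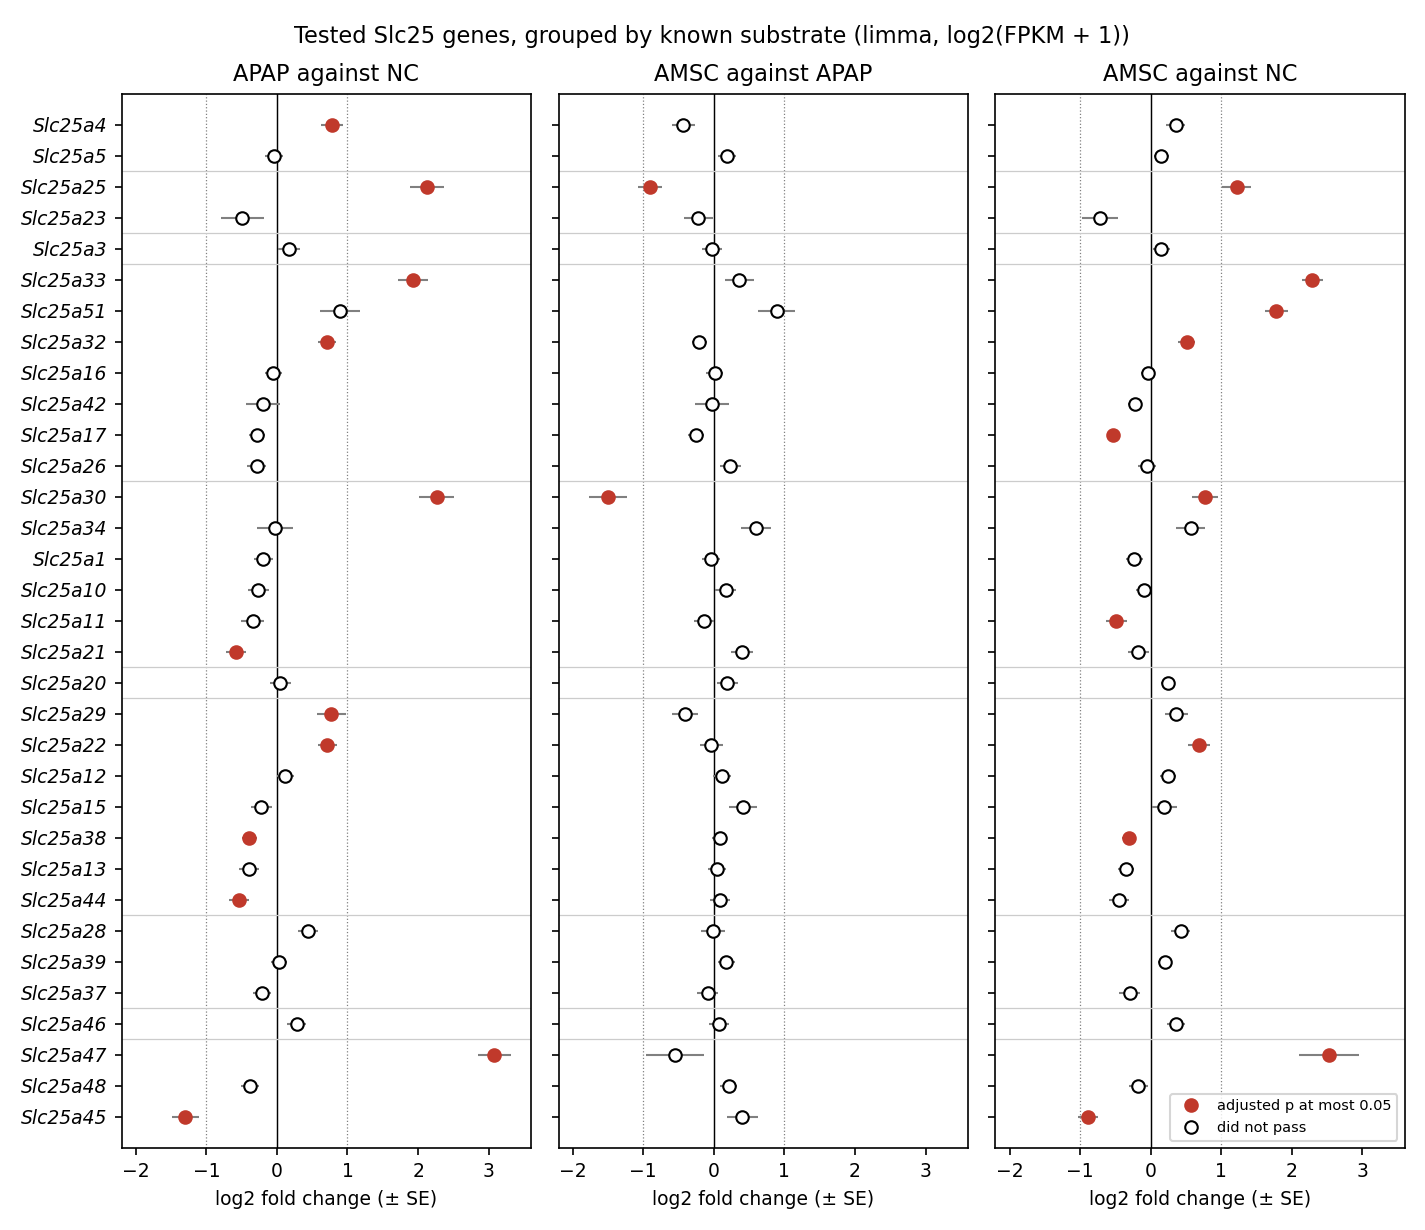
Log2 fold changes (± SE) of tested Slc25 genes in the 3 comparisons, grouped by known substrate, with filled points for an adjusted p of at most 0.05 (limma on log2(FPKM + 1), 3 livers per group). Slc25a30 and Slc25a25 are the 2 filled points of AMSC against APAP, and both are to the left of 0.

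The comparison of AMSC with NC asks which carriers differed from control livers when both APAP and AMSCs had been given. Slc25a47, Slc25a33, Slc25a51 and Slc25a25 were DEGs and rose by 1.22 to 2.53 on the log2 scale. With limma 7 of the 34 members (20.6%) rose and 5 (14.7%) fell, where 14.1% of all genes rose and 11.9% fell. The 4 DEGs made up 11.8% of the members, compared with 6.01% of all genes. The median log2 fold change was 0.15 over the members and 0.02 over all genes tested. After quantile normalization 7 members rose and 8 fell, the 3 further ones being Slc25a44 (adjusted p = 0.0331), Slc25a13 (0.0168) and Slc25a1 (0.0429). Over all 9699 genes 1221 then rose and 1429 fell, compared with 1367 and 1154 without it.

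Against NC, Slc25a33 rose in AMSC by 2.29 (SE 0.14, adjusted p = 3.57e-05 with limma), Slc25a47 by 2.53 (SE 0.43, adjusted p = 0.00402) and Slc25a25 by 1.22 (SE 0.20, adjusted p = 0.00391). Slc25a51, the NAD carrier, rose from 12.7 ± 2.90 to 45.7 ± 5.03 FPKM (SD, n = 3), which was 3.44-fold on the log2(FPKM + 1) scale (log2 1.78, SE 0.17, adjusted p = 0.00026). Slc25a30 rose by 0.77 (adjusted p = 0.0174), Slc25a22 by 0.68 (0.0164) and Slc25a32 by 0.51 (0.0175). Slc25a30 and Slc25a32 lost their calls without NC replicate 2 (0.0619 and 0.0705), AMSC replicate 2 (0.0556 and 0.0521) or AMSC replicate 4 (0.0601 and 0.0637), and Slc25a22 without NC replicate 2 (0.0600) or AMSC replicate 4 (0.0619). With no filter on low genes, Slc25a47, Slc25a25, Slc25a30, Slc25a22 and Slc25a32 missed the threshold (0.0607, 0.0506, 0.104, 0.0904 and 0.0582), and Slc25a20 passed (log2 0.24, adjusted p = 0.0497).

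Slc25a45 fell in AMSC against NC by 0.89 (SE 0.14, adjusted p = 0.00349 with limma). Slc25a17, the cofactor carrier of peroxisomes, had 21.1, 19.6 and 21.3 FPKM in NC, 16.8, 15.7 and 18.1 in APAP, and 13.9, 14.2 and 14.0 in AMSC. It fell in AMSC by 0.53 (SE 0.09, adjusted p = 0.00515), with the AMSC livers close together and below all others. Slc25a11, the oxoglutarate/malate exchanger, had 38.2, 43.1 and 53.6 FPKM in NC, 34.5, 31.1 and 39.4 in APAP, and 33.4, 28.3 and 33.2 in AMSC, and it fell in AMSC by 0.48 (adjusted p = 0.0402). Part of its exon sequence, 189 bases, overlaps Rnf167 on the other strand. Slc25a38 fell by 0.31 (0.0466). The call on Slc25a11 was lost without NC replicate 2 or 3 or AMSC replicate 2, 3 or 4 (0.0736 to 0.0991), and that on Slc25a38 whichever replicate was left out (0.0550 to 0.160). Slc25a11 also missed the threshold with no filter on low genes (0.139), and Slc25a38 with voom (0.0623). Without NC replicate 3, the library of the other label date, Slc25a23, Slc25a28 and Slc25a44 passed (0.00285, 0.0492 and 0.0297), and Slc25a28 and Slc25a46 passed without AMSC replicate 3 (0.0187 and 0.0373).

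Carriers with the same known substrate did not all have the same values. For ADP/ATP exchange, the log2 fold change in APAP against NC was 0.78 for Slc25a4 and -0.04 for Slc25a5. For exchange of ATP-Mg with phosphate it was 2.13 for Slc25a25 and -0.49 for Slc25a23. For iron it was 0.44 for Slc25a28 and -0.21 for Slc25a37, and for aspartate/glutamate exchange 0.12 for Slc25a12 and -0.40 for Slc25a13. The differences within these pairs were not tested.

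The 13 members below 1 FPKM on average were Slc25a14, Slc25a24, Slc25a18, Slc25a40, Slc25a36, Slc25a2, Slc25a53, Slc25a35, Slc25a27, Slc25a43, Slc25a31, Slc25a41 and Slc25a54. Slc25a41 and Slc25a54 were listed at 0 in all 9 libraries, and the other 11 were above 0 in some library. When all genes above 0 were tested with limma, 0 of these 11 passed in any comparison. In that fit 8 of the 33 values had an unadjusted p under 0.05, and the share of all genes at that threshold was not counted. They were not tested with voom. Slc25a24, the third calcium-regulated exchanger of ATP-Mg for phosphate, had 0.245, 0.337 and 0.389 FPKM in NC, 0.913, 0.729 and 0.499 in APAP, and 0.330, 0.314 and 0.446 in AMSC (adjusted p = 0.127 in APAP against NC). Slc25a36, the second carrier of pyrimidine nucleotides, had 0.181, 0.121 and 0.266 FPKM in NC, 0.466, 0.336 and 0.388 in APAP, and 0.269, 0.152 and 0.201 in AMSC (adjusted p = 0.0999 in APAP against NC). For both genes the APAP livers were above all others. Slc25a18, a second glutamate carrier, had 0.0314, 0.0303 and 0.0304 FPKM in NC, 0.0780, 0.676 and 0.195 in APAP, and 1.02, 0.443 and 0.313 in AMSC (adjusted p = 0.123 in AMSC against NC). Slc25a14, the relative of Slc25a30, had 0.341 to 1.25 FPKM over the 9 libraries. Slc25a40, the relative of Slc25a39, had 0.115 to 0.554 FPKM.

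Newly made carriers reach the inner membrane through the outer membrane TOM pore, small chaperones of the space between the membranes and the TIM22 complex. Of the 11 tested genes of this import route, 0 rose and 4 (36.4%) fell in APAP against NC with limma, where 12.8% and 13.1% of all genes did so (0 upward at an unadjusted p under 0.05, and 0 with voom). The smallest adjusted p was that of Tomm40, the channel of the TOM complex, which went from 11.8 ± 1.8 FPKM in NC to 6.15 ± 0.51 in APAP and 9.18 ± 0.37 in AMSC (APAP against NC: log2 -0.83, adjusted p = 0.00551). The TIM22 subunit Timm29 and the chaperone Timm10 also fell in APAP (log2 -0.59 and -0.69, adjusted p = 0.00752 and 0.0246). In AMSC against APAP 0 of the 11 passed with limma, and voom called 1 higher, where it called 206 of all 9699 genes higher. An unadjusted p under 0.05 was found for 3 of the 11, all upward, and the share of all genes at that threshold was not counted. In AMSC against NC 0 rose (0 upward at an unadjusted p under 0.05, and 0 with voom) and 2 fell (18.2%, with 11.9% of all genes), which were Timm9 and Timm22 (log2 -0.42 and -0.39, adjusted p = 0.0395 and 0.0428).

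Of 16 tested enzymes that hand substrates to or take them from these carriers, 3 (18.75%) rose and 2 (12.5%) fell in APAP against NC, where 12.8% and 13.1% of all genes did so. Got1, the cytosolic partner of the aspartate/glutamate exchangers in the malate-aspartate shuttle, rose by 1.01 (adjusted p = 0.0168 with limma), and Pck1, which feeds gluconeogenesis, rose by 1.23 (0.0188). Alas1, the first enzyme of heme synthesis, which uses the glycine carried by Slc25a38, fell from 205 ± 15 FPKM in NC to 45.4 ± 9.7 in APAP and was 176 ± 62 in AMSC. It fell by 2.17 in APAP against NC (adjusted p = 0.000251) and rose by 1.91 in AMSC against APAP (0.0113). Acly, which splits the citrate exported by Slc25a1, fell in AMSC against APAP by 1.09 (0.0124) and against NC by 1.11 (0.00369). In AMSC against APAP 1 of the 16 rose and 1 fell (6.25% each, with 1.64% and 2.14% of all genes), and in AMSC against NC 3 rose and 2 fell (18.75% and 12.5%, with 14.1% and 11.9%). Of the carrier relatives named otherwise, Ucp2 rose in APAP against NC by 1.11 (adjusted p = 0.005) and in AMSC against NC by 0.45 (0.0468), with -0.66 in AMSC against APAP (0.117). Mtch1 and Mtch2 had log2 fold changes of -0.01 to 0.07 in the 3 comparisons, and Ucp1 and Ucp3 were listed at 0.

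Markers of other cells were read in the same livers. In APAP against NC, limma called 3 of 3 tested neutrophil markers, 4 of 5 erythroid, 1 of 7 macrophage, 1 of 6 endothelial and 0 of 5 stromal markers higher, with 0 stromal markers upward at an unadjusted p under 0.05 and 0 with voom. Of all genes tested 12.8% rose. In AMSC against APAP limma called 1 of 7 macrophage and 1 of 5 erythroid markers lower, where 2.14% of all genes fell. At an unadjusted p under 0.05 (limma), 6 macrophage, 5 erythroid, 3 neutrophil and 3 endothelial markers were downward there and 1 stromal marker upward. The share of all genes at that unadjusted threshold was not counted, so these marker counts have no background to be read against. The summed level of neutrophil markers (6 of 7 above 0 in some library, Camp at 0) was 0.173 to 1.59 FPKM in NC, 7.20 to 33.6 in APAP and 4.41 to 5.77 in AMSC. That of macrophage markers (7 of 7) was 53.6 to 107.8 FPKM in NC, 79.8 to 195.4 in APAP and 44.5 to 72.1 in AMSC. Of the adipocyte markers nearly the whole level was Cidec, a lipid droplet gene, with 1.13 to 1.59 FPKM in NC, 10.4 to 38.2 in APAP and 9.97 to 24.5 in AMSC. The defining adipocyte genes Adipoq, Plin1 and Lep were at 0.162 FPKM or less in every library, and Ucp1 was at 0. Endothelial markers (6 of 6) summed to 18.4 to 41.6, 21.2 to 58.1 and 19.3 to 21.0 FPKM in NC, APAP and AMSC, and stromal markers (7 of 7) to 18.1 to 33.1, 23.0 to 50.6 and 23.7 to 40.0 FPKM, with the ranges of NC and APAP overlapping for both. The part of these cells, and of the hepatocyte markers given above, in the values of the carriers and of Ucp2 was not tested.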

How the data were processed

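Liver RNA of 9 mice was sequenced. The authors deposited FPKM values per gene with the gene length they used. The submitters' processing notes name the build GRCm38 (mm10), and the aligner and counting program are not given in the sources used here. FPKM times the deposited gene length gave whole reads for 100% of values (within 0.1). Groups came from the sample labels. The 9699 genes averaging 1 FPKM or more over all libraries were tested with limma 3.58.1 (lmFit, eBayes with trend) in R 4.3.3 on log2(FPKM + 1), with 2 groups per fit and Benjamini-Hochberg adjustment over all genes tested, after a check on simulated data. Intervals are 95% intervals of the model.

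The members and lists were chosen with earlier results of these data known. Every member that passed in any comparison is named, except 1 member that is counted but not reported here. Values per library are given for DEGs, for the 5 members with the highest mean FPKM and for others described. Up to 3 genes per side list are named in each comparison, DEGs first and then by adjusted p, and all the carrier relatives named otherwise are given. Other members were named after their values were seen.

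Replicate numbers come from the labels' descriptions, and NC replicate 3 carries the number 1 beside its other date in its title. Same-numbered APAP and NC libraries deviated together (r = 0.213, 0.160 and 0.378 across genes), so blocked values are given where they change a call. The alternatives tried were testing all genes above 0, a pseudocount of 0.1, quantile normalization, 1 joint fit of the 9 libraries, the replicate block, voom (limma) on the recovered reads, and leaving out each replicate. Promoter windows are from RefSeq. Figures were drawn with Python 3.11.15 and matplotlib 3.10.9.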

Additional observations from a re-analysis of the deposited data

How the results depend on the processing

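The calls on Slc25a47, Slc25a25, Slc25a30, Slc25a33, Slc25a45, Slc25a22 and Slc25a32 in APAP against NC, and on Slc25a33 and Slc25a51 in AMSC against NC, held in all 12 alternatives run for each comparison. No called direction reversed in any alternative. Counts of members moved by over 1.5 times in these cases. Testing all genes above 0 gave 2 lower members in APAP against NC (4 in the report), 0 lower members and 0 DEGs in AMSC against APAP (2 and 1), and 3 higher members and 2 DEGs in AMSC against NC (7 and 4). Over all 24849 genes of that fit 997 fell in APAP against NC (1271 of 9699 in the report). In AMSC against APAP 30 of all genes fell (208), and in AMSC against NC 982 rose (1367). Voom gave 8 DEGs in APAP against NC (5), and quantile normalization gave 8 lower members in AMSC against NC (5), where 1429 of all genes fell (1154). Over all genes voom called 1331 higher and 1285 lower in APAP against NC (1243 and 1271). DEGs over all genes were not counted in the alternatives, so the DEG counts of members there have no background. Over the alternatives in APAP against NC, log2 fold changes reached 1.09 for Slc25a4, 1.11 for Slc25a29 and -1.03 for Slc25a21. Their values in the report were 0.78, 0.77 and -0.57. The cause of these moves was not tested. Leaving out each replicate gave 1 to 6 lower members in APAP against NC, 0 to 1 higher, 0 to 2 lower and 0 to 2 DEGs in AMSC against APAP, and 4 to 9 higher and 2 to 5 lower in AMSC against NC. Over all genes these fits gave 635 to 1325 lower in APAP against NC. In AMSC against APAP they gave 41 to 131 higher and 56 to 235 lower, and in AMSC against NC 933 to 1258 higher and 700 to 1115 lower. AMSC libraries share only the numbers 2 and 3 with the others, and their deviations correlated at -0.104 and -0.293 with APAP and -0.199 and -0.309 with NC, so these numbers were not taken as pairs. With the replicate block on these 2 numbers, 3 members were DEGs in AMSC against APAP, and 4 rose and 0 fell in AMSC against NC, from 2 libraries per group. Over all genes 544 rose and 303 fell in that fit of AMSC against NC (1367 and 1154 in the report). In that of AMSC against APAP 147 of all genes rose and 242 fell (159 and 208). In AMSC against APAP Slc25a47 passed with the block (log2 -1.09, adjusted p = 0.0417). In APAP against NC the block, which uses the description's number for NC replicate 3, added Slc25a23 and Slc25a28 and changed no other call. Without NC replicate 3, the library of the other label date, 7 members rose and 3 fell in APAP against NC, and 8 rose and 5 fell in AMSC against NC. Over all genes 1019 rose and 1133 fell in APAP against NC, and 1241 rose and 1115 fell in AMSC against NC, without this library. Of the 16 other tested members, 10 of 576 values passed over the 3 comparisons and their alternatives. Members with few reads limit the depth, since a tested member had a mean of as few as 62.1 reads per library.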

Other observations

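Other transporters of the mitochondrial membranes, which are not Slc25 genes, were read in the same fits (21 tested). In APAP against NC 3 rose and 3 fell with limma (14.3% each, with 12.8% and 13.1% of all genes), and in AMSC against NC 4 rose and 2 fell (19.0% and 9.52%, with 14.1% and 11.9%). Slc8b1, the sodium/calcium exchanger of the inner membrane, had 5.81 ± 0.95 FPKM in NC, 22.5 ± 4.3 in APAP and 21.6 ± 4.7 in AMSC (SD, n = 3). It rose by 1.78 in APAP (adjusted p = 0.00057) and by 1.72 in AMSC (0.000417) against NC. Abcb10, an exporter tied to heme synthesis, had 7.72 ± 1.4, 3.55 ± 0.64 and 2.70 ± 0.43 FPKM and fell by 0.94 and 1.23 (adjusted p = 0.00661 and 0.00103). Mcu, the pore of the calcium uniporter, rose from 1.53 ± 0.037 FPKM in NC to 3.30 ± 0.40 in APAP (log2 0.76, adjusted p = 0.00389). In AMSC against APAP 0 of the 21 passed with limma, 0 had an unadjusted p under 0.05, and voom called 0.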
